A study of Mus musculus with 12 samples.

Results

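The cytosolic ribosomal protein genes were taken from the expression table by gene symbol: names that begin with Rpl or Rps and continue as a protein name, without the Rps6k kinases, the mitochondrial ribosomal proteins and the pseudogenes. The rule found 83 of 17576 genes, 51 of the large (60S) subunit and 32 of the small (40S) subunit. Of these, 80 had at least 1 RPKM (read number divided by gene length and library size) in at least 3 libraries and were tested, among 11435 genes in all. The other 3 were Rpl3l, Rpl10l and Rpl39l, copies used in muscle or testis, which stayed at or under 0.14 RPKM in each library. Rps4l was not analysed here.

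A ribosome holds 1 copy of nearly every one of these proteins, arranged on ribosomal RNA in a small subunit that reads the mRNA and a large subunit that joins amino acids. Their mRNAs are among the most abundant of a growing cell, and most begin with a run of C and T bases, the 5′ terminal oligopyrimidine tract, through which mTORC1 and LARP1 govern their translation and stability. In the testis some canonical genes have copies, several of which serve germ cells when the X chromosome is silent.

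The libraries came from C18-4, an immortalized mouse line derived from type A spermatogonia and used in place of spermatogonial stem cells. The 3NC group carried the LV3 lentiviral vector with a control shRNA, and the KD group carried LV3 with mixed shRNAs made against lncRNA5251. The 5NC group carried the LV5 vector without an insert, and the OV group carried LV5 with the full lncRNA5251. Each group had 3 libraries of stable transfected cells, and the strain label of all was IRC mouse. The labels do not say whether replicates were separate cultures, so the p-values measure the spread between these libraries, which may be technical. The vector goes with the groups, so that LV3 and LV5 cannot be told apart from other differences between 3NC and 5NC.

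The summed RPKM of a library was between 533099 and 580920, and read depth is unknown from the table. The level of lncRNA5251 was not analysed here, so neither its knockdown nor its overexpression was checked at its own transcript. The 3 listed knockdown sequences matched only Purb exactly, which was at 8.79 to 10.3 RPKM in KD, 32.9 to 34.1 RPKM in 3NC, 29.2 to 32.1 RPKM in 5NC and 23.9 to 33.3 RPKM in OV. Of 16 spermatogonial markers in the table, 4 (Uchl1, Itga6, Id4 and Etv5) had a mean of at least 1 RPKM, and Nanos2, Kit, Ret and Pou5f1 were listed at 0. Of 11 fibroblast and mesenchymal markers, 9 had at least 1 RPKM. Their RPKM summed to 899 to 943 (3NC), 1024 to 1127 (KD), 1219 to 1259 (5NC) and 1271 to 1361 (OV). Most of this was Vim, with group means of 536, 541, 537 and 609.8 RPKM, and Col1a1, with 256, 367, 380.9 and 423 RPKM, whereas the means of Fn1 were 8.28, 3.45, 7.68 and 7.66 RPKM and those of Pdgfra 1.32, 1.09, 0.877 and 0.803 RPKM. The 9 tested differed by −1.06 to 1.04 on the log2 scale in KD against 3NC (median 0.42). In 5NC against 3NC the range was −0.31 to 2.32 (median 0.28). The spermatogonial markers summed to 87.6 to 96.8, 71.3 to 78.6, 98.2 to 102 and 114 to 131. Most of the latter sum was Uchl1, with group means of 77.1, 65.1, 91.1 and 116 RPKM in the same order, whereas the means were 7.81, 2.35, 3.10 and 2.86 RPKM for Etv5, 5.51, 7.26, 4.51 and 3.39 RPKM for Itga6 and 1.56, 0.933, 1.28 and 1.41 RPKM for Id4. The part of these markers in the results on ribosomal protein genes was not tested. In such bulk RNA, fewer cells of a type and less RNA per cell cannot be told apart.

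The annotated start sites of 10 genes to which the results return are shown first, since the tract begins the mRNA. RefSeq promoter entries on GRCm38.p6 matched 63 of the 83 genes and 60 of the 80 tested, Rpl29 and Rpl3 not among them. Each line gives the 15 bases before and the first 15 bases of the annotated transcript (5′ UTR of exon 1), with the longest run of C and T bases in that window in capitals where it has at least 5. The capitals mark any such run, which need not be the tract. In Rplp0 and Rps25 they lie before the annotated start, outside the annotated transcript. The first 3 genes were lower in KD and higher in 5NC than in 3NC, the next 3 were higher in KD, and the last 4 were among the genes lower in 5NC than in 3NC and higher in OV than in 5NC.
Rplp0 (chr5:115559452-115559481, plus strand): gTCTTCgggtttcgaggaccgcctggttct
Rpsa (chr9:120127751-120127780, plus strand): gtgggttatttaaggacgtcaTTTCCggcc
Rpl7l1 (chr17:46782642-46782671, minus strand): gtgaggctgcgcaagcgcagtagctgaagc
Rpl22l1 (chr3:28805493-28805522, plus strand): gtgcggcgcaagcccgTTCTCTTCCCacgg
Rpl38 (chr11:114668565-114668594, plus strand): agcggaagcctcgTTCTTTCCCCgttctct
Rps27 (chr3:90213634-90213663, minus strand): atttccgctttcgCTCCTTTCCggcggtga
Rpl18 (chr7:45718056-45718085, plus strand): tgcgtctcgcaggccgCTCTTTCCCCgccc
Rpl15 (chr14:18270972-18271001, minus strand): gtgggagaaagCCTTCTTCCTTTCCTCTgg
Rps25 (chr9:44407699-44407728, plus strand): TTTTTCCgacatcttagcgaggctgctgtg
Rps12 (chr10:23787195-23787224, minus strand): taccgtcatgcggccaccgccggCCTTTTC

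A run of at least 8 C or T bases on the transcribed strand within 50 bases of an annotated start was present in 50 of 60 tested ribosomal protein genes (83.3%), against 39.3% of 27025 genes with an entry. The letters CTTTCC on the same strand and in the same window, which can overlap the run, were in 30% of the 60 genes and 5.43% of all. CCGGAAG, a core of ETS factor sites, was found on either strand from 100 bases before to 50 bases after the start in 31.7% against 7.52%. GATGGCG, the core of the YY1 motif, was found there in 8.33% against 2.61%. TATAAA at 45 to 15 bases before the start was in 1.67% against 2.57%. The 27025 genes used as the comparison for each motif were not limited to genes tested, unlike the 60. These matches are a description of the letters in the windows. Rplp0, Rpsa and Rpl7l1 had no run of 8 bases there, and their longest was 7. A run in this window need not be the tract at the first base of the mRNA. Whether these genes lack the tract was not tested.

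Ribosomal protein mRNA was very abundant in C18-4 cells. The median over the 80 genes of the mean RPKM was 1273, with quartiles of 911 and 1781, against 14.0 RPKM over all genes tested, and 63 of the 100 genes with the highest mean were of this family. The highest means were those of Rpl23a (3873 RPKM), Rpl41 (3540 RPKM), Rpl38 (3088 RPKM), Rps2 (3022 RPKM) and Rpl32 (2725 RPKM). RPKM is per length, so these levels can be set beside each other as far as the length given to each gene holds. Rpl23a lies at the exit of the peptide tunnel, and Rps2 at the mRNA entry of the 40S subunit.

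A mean under 500 RPKM was found for 8 of the 80 genes. They were Rpl29 (9.19 RPKM), Rps6 (26.2 RPKM), Rpl7l1 (69.5 RPKM), Rps15a (95.0 RPKM), Rps20 (143 RPKM), Rpl22 (220.1 RPKM), Rps27l (225 RPKM) and Rpl22l1 (271 RPKM). Rps6 is the substrate of the S6 kinases and Rpl29 a protein of the 60S surface, both canonical parts of every ribosome. Ribosomal protein genes have many processed copies in the genome, and how shared reads were counted is not stated, so levels and differences of single genes are uncertain to that extent. Their transcripts were also short, with a median of 774 bases against 2693.5 over the genes tested. Among the members of low level, Rps15a (5130 bases), Rps20 (3706 bases) and Rpl22 (2048 bases) had the longest annotated transcripts of the family, and the lengths the authors divided by are not given in the sources used here.

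Set against the whole library, the family differed little between KD and its control and more between the vectors. Its share of the summed RPKM was 20.5%, 20.7% and 20.8% in the 3NC libraries and 19.8%, 20.2% and 20.3% in the KD libraries. It was 19.1%, 18.6% and 19.0% in the 5NC libraries and 20.1%, 19.6% and 18.4% in the OV libraries. The group means (± SD, n = 3) were 20.7% ± 0.168 for 3NC, 20.1% ± 0.288 for KD, 18.9% ± 0.286 for 5NC and 19.4% ± 0.867 for OV. The 3NC libraries lay above those of KD and those of 5NC, whereas the OV libraries spanned the range of 5NC. Weighted by transcript length, which follows reads more than transcripts, the mean shares were 8.57%, 8.24%, 7.67% and 8.15% in the same order.

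**Figure D1:**
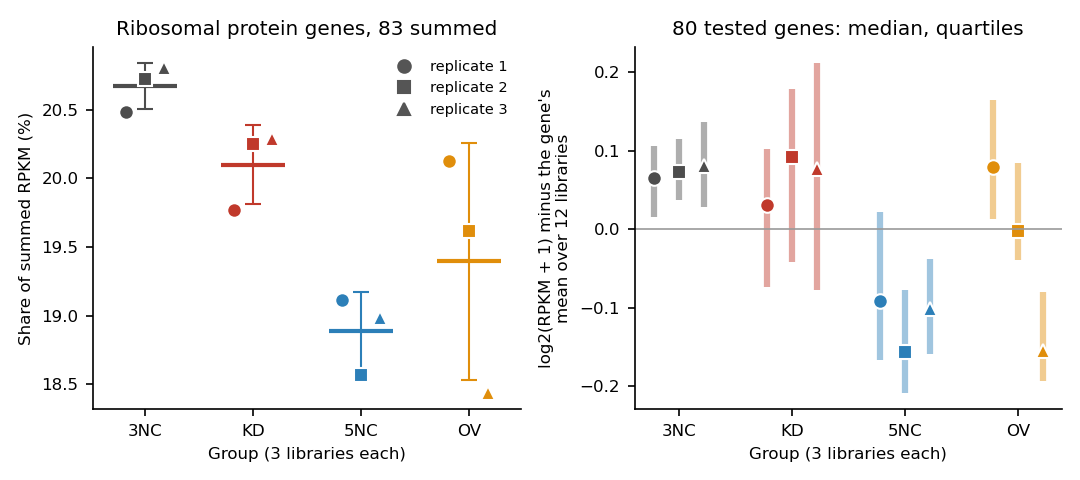
Left, the share of the summed RPKM taken by 83 ribosomal protein genes (%; the axis does not start at 0) in each library, with the group mean and SD; right, the median and quartiles over 80 genes of log2(RPKM + 1) minus the gene's mean over 12 libraries. The 5NC libraries lie between 18.6% and 19.1%, under all 3NC libraries, and OV replicate 3 lies apart from the other OV libraries.

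The balance of the subunits was also compared. The ratio of the summed RPKM of large subunit genes to that of small subunit genes (mean ± SD, n = 3) was 1.53 ± 0.00391 for 3NC, 1.56 ± 0.0172 for KD, 1.57 ± 0.0266 for 5NC and 1.58 ± 0.0103 for OV. All libraries of KD, 5NC and OV were above those of 3NC.

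The first comparison asked what the knockdown construct changed against its vector control. In KD 10 of 80 genes were higher, 20 were lower and 50 did not pass an adjusted p of 0.05 (limma on log2(RPKM + 1), Benjamini-Hochberg over all genes tested). Over all genes tested 31.9% were higher and 23.5% lower, so the share of members lower (25%) was near the background and the share higher (12.5%) was under it. The median difference was −0.01 on the log2 scale, against 0.04 over all genes tested, and the quartiles were −0.15 and 0.09. All 3 libraries of KD lay above those of 3NC in 19 members and below in 28, where this held for 35.7% and 27.1% of all genes tested. The number higher was 5 without 3NC replicate 1, 6 without 3NC replicate 3 and 5 without KD replicate 3, and the number lower stayed between 14 and 19 with any library left out. Over all genes tested 28.4% to 31.3% were higher and 20.5% to 22.4% lower in these fits. Quantile normalization gave 22 higher and 19 lower, beside 29.5% and 26.6% of all genes.

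Length moved with this comparison. Other genes with transcripts under 1000 bases, 836 in number, had a median of 0.13 in KD against 3NC, and those over 3000 bases had 0.03. With this trend taken off from the differences, 4 ribosomal protein genes were higher and 45 lower, where 28.9% of all genes were higher and 29.1% lower, and the median was −0.12. The share of members lower was then well above the background, so the account of the family in KD depends on this choice. The other 89 genes with a mean of at least 500 RPKM had a median of 0.02.

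**Figure D2:**
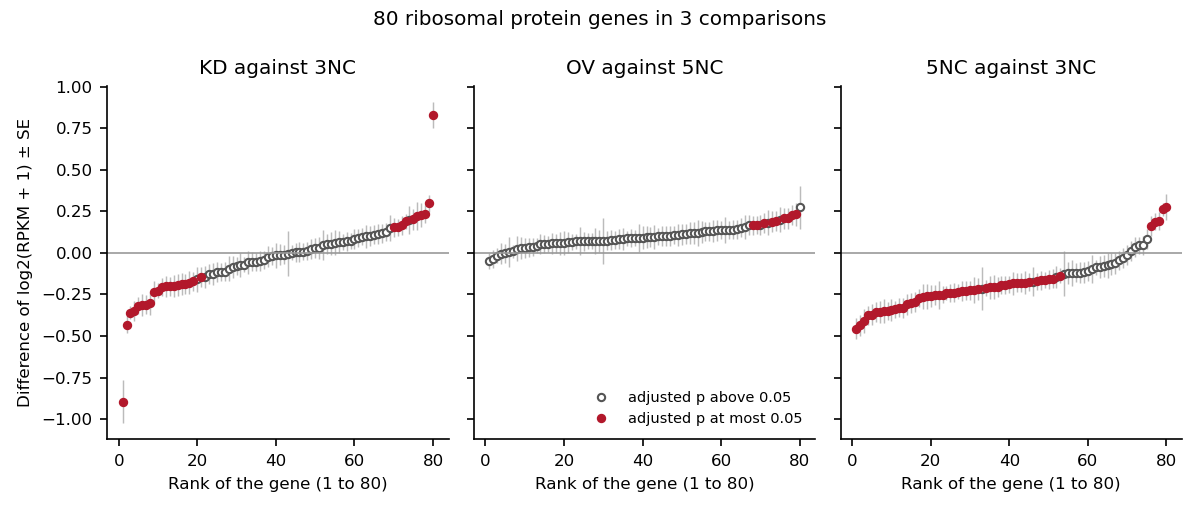
Differences of log2(RPKM + 1) with SE for 80 ribosomal protein genes, ranked within each comparison; filled points passed an adjusted p of 0.05. KD against 3NC runs from −0.89 to 0.83 around a median of −0.01, OV against 5NC lies mostly just above 0 (median 0.09), and 5NC against 3NC lies mostly under 0 (median −0.19).

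The genes that fell most in KD included proteins of the stalk, of the mRNA path and of the 60S body. Rplp0 is the base of the P-stalk, the flexible arm of the 60S subunit that recruits elongation factors. It was at 1697, 1672 and 1737 RPKM in 3NC and at 1229, 1258 and 1299.9 RPKM in KD. The groups did not overlap, and the difference was −0.43 (SE 0.05, adjusted p = 6.27e-06, limma with Benjamini-Hochberg). The other proteins of the stalk, Rplp1, Rplp2 and Rpl12, had differences of −0.19, −0.12 and −0.12, of which that of Rplp1 passed (adjusted p = 0.0294) but did not pass without 3NC replicate 1, 2 or 3 or without KD replicate 1 or 2.

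Rpsa, also known as the laminin receptor, lies at the mRNA exit of the 40S subunit next to Rps2. Rpsa was at 1153, 1105 and 1143 RPKM in 3NC and at 899, 929 and 903 RPKM in KD. Rps2 was at 3018, 2958 and 3121 RPKM in 3NC and at 2379, 2439.8 and 2328 RPKM in KD. Both were lower in every KD library than in every 3NC library. The difference was −0.32 (SE 0.05, adjusted p = 7.39e-05) for Rpsa and −0.35 (SE 0.06, adjusted p = 0.000167) for Rps2. Rps10 (−0.31) in the 40S head and Rpl8 (−0.31) and Rpl18 (−0.30) in the 60S body fell by nearly as much.

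The largest fall belonged to a gene listed at a low level. Rpl29 was at 11.1, 10.3 and 11 RPKM in 3NC and at 4.95, 4.11 and 7.41 RPKM in KD. The KD libraries did not reach those of 3NC, but they varied more than those of any other member (CV 31.2%). The difference was −0.89 (SE 0.13, adjusted p = 3.27e-05). The differences of Rplp0, Rpsa, Rps2, Rps10, Rpl7l1 and Rpl29 passed an adjusted p of 0.05 under every other scaling, filter and design run and with any library left out.

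The genes that rose in KD were led by Rpl22l1, a copy of Rpl22 with which it shares its place on the 60S surface. Rpl22l1 was at 191, 215 and 206 RPKM in 3NC and at 348, 346 and 396 RPKM in KD. Its difference of 0.83 (SE 0.08, adjusted p = 4.80e-07) was the only rise in the family above 0.30. Rpl22 itself was at 219.8, 229.7 and 233 RPKM in 3NC and at 251, 265 and 289 RPKM in KD. It rose as well, by 0.24 (SE 0.06, adjusted p = 0.00221), so that parent and copy were both higher.

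Rpl3 lies close to the site of peptide bond formation. It was at 1106, 1095 and 1142 RPKM in 3NC and at 1351, 1348 and 1409 RPKM in KD, a difference of 0.30 (SE 0.05, adjusted p = 0.000128) between groups that did not overlap. Rpl38, known for its part in the translation of Hox mRNAs, was at 3153, 3346 and 3339.7 RPKM in 3NC and at 3470.3, 3904 and 4174 RPKM in KD. Its difference was 0.23 (SE 0.07, adjusted p = 0.0151), and it was 0.17 without KD replicate 3 and 0.20 without 3NC replicate 1, where it did not pass. With the length trend taken off it was 0.02. Rps27, a zinc finger protein of the 40S subunit, differed by 0.20 (adjusted p = 0.0117), which did not pass without 3NC replicate 1 and was −0.02 with the length trend taken off. The other genes that rose were Rpl39 (0.22), Rpl4 (0.19), Rpl36a (0.17), Rpl35a (0.16) and Rps24 (0.15). Of these, Rpl39 overlapped between the groups and was lost without 3NC replicate 1 or 3 or KD replicate 3. Rpl36a was lost without 3NC replicate 1 or 3 or KD replicate 2 or 3, and the sign of Rpl36a turned (−0.01) with the length trend taken off. The calls of Rpl35a and Rps24 were also lost with the length trend taken off, where only Rpl22l1, Rpl3, Rpl22 and Rpl4 were higher. Without 3NC replicate 1 or without KD replicate 3, 5 members were higher, and Rpl35a and Rps24 were not both among them.

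**Figure D3:**
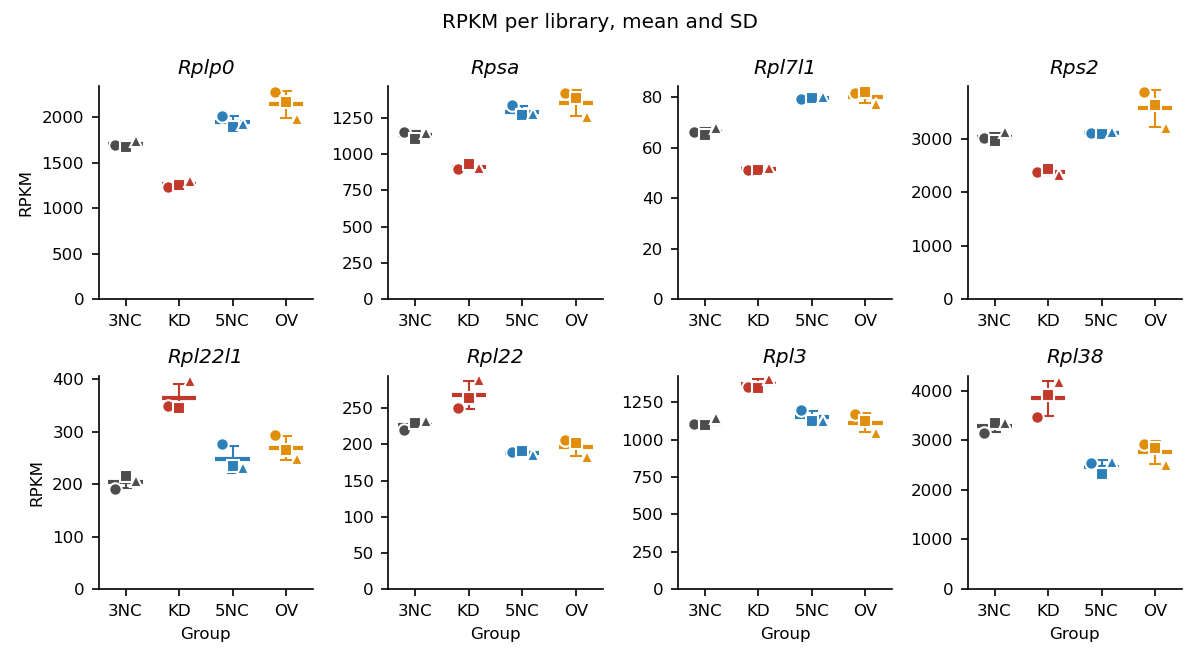
RPKM in each library (circle, square and triangle for replicates 1, 2 and 3), with the group mean and SD, for 4 genes that were lower in KD (upper) and 4 that were higher (lower); all axes start at 0. Rplp0, Rpsa and Rpl7l1 are lowest in KD and higher in 5NC than in 3NC, while Rpl22 and Rpl38 are highest in KD and lower in 5NC than in 3NC.

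The second comparison asked what the lncRNA5251 construct changed against the empty LV5 vector. In OV, 9 of 80 genes were higher and 0 were lower, where 8.07% of all genes tested were higher and 13.9% lower (limma). At an unadjusted p under 0.05, 22 members were higher and 0 lower, as were 1601 and 2639 of all genes tested. The median difference was 0.09, against −0.03 over all genes tested, and the quartiles were 0.06 and 0.14. A like median was found in other genes of high level, which had 0.14 over 89 genes with at least 500 RPKM. The 3 OV libraries lay above those of 5NC in 8 members and below in 0, against 14.6% and 22% of all genes tested. Quantile normalization gave 1 higher and 6 lower with a median of −0.01, beside 8.21% and 8.31% of all genes, and scaling to the same sum of RPKM gave 5 higher and 2 lower with a median of 0.030, beside 4.56% and 21.7% of all genes and a median of −0.08 over them. Length moved with this comparison too, since other genes with transcripts under 1000 bases had a median of 0.06 and those over 3000 bases −0.10. With this trend taken off, 10 members were higher, 0 were lower (limma, 3 at an unadjusted p under 0.05) and the median was 0.034, where 10.5% of all genes were higher and 8.53% lower.

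The count in OV depended on which libraries entered, and OV replicate 3 stood apart from the other OV libraries. It was below both other OV libraries in 80 of 80 members, where 44.8% of all genes tested were. OV replicates 1 and 2 were both above all 5NC libraries in 60 members, while OV replicate 3 was above all of them in 8, within their range in 41 and below all of them in 31. Without OV replicate 3, 53 members were higher and the median was 0.16, where 14.6% of all genes tested were higher and 21.9% lower. Without OV replicate 1 or 2, or without 5NC replicate 2 or 3, 0 were higher in the limma test (7 to 16 at an unadjusted p under 0.05), and without 5NC replicate 1 there were 3. Over all genes tested the share higher was 3.42% to 5.49% in these fits.

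**Figure D4:**
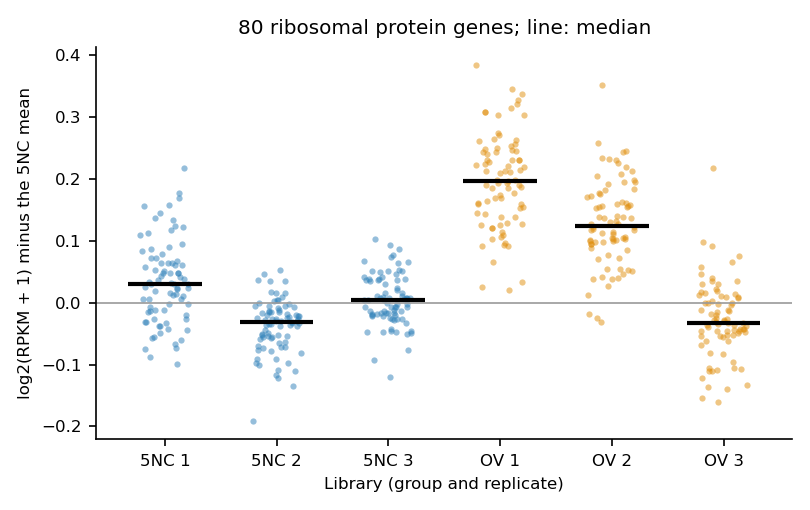
Each point is 1 of 80 ribosomal protein genes in 1 library, as log2(RPKM + 1) minus the gene's mean over the 5NC libraries; black lines are medians. The points of OV replicates 1 and 2 lie mostly above 0 and those of OV replicate 3 lie around and under 0, among those of 5NC.

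The genes that passed in OV were from both subunits. Rpl15 and Rpl18 are proteins of the 60S body, and Rps14 and Rps19 are 40S proteins known from anaemias of ribosome shortage. Rpl15 was at 893, 888 and 877 RPKM in 5NC and at 1111, 1059.8 and 948 RPKM in OV. Its difference was 0.23 (SE 0.06, adjusted p = 0.0156). Rpl18 was at 1613, 1707 and 1751 RPKM in 5NC and at 2205, 2001 and 1769 RPKM in OV, a difference of 0.23 (SE 0.07, adjusted p = 0.0278). In both genes OV replicate 3 was the lowest of the OV libraries and above the highest 5NC library.

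Rps14 (0.21), Rps19 (0.21) and Rps2 (0.19) showed the same order of libraries, without overlap. Without OV replicate 3 the differences of Rpl18, Rpl15, Rps19, Rps14 and Rps2 were 0.31, 0.29, 0.28, 0.28 and 0.27. The call of Rpl15 was lost without 5NC replicate 2 or 3 or OV replicate 1 or 2, and those of Rpl18, Rps14, Rps19 and Rps2 were lost without any 1 library other than OV replicate 3. Rpl11, Rps25, Rps12 and Rpl35 made up the 9, with differences of 0.17 to 0.19, and their calls were likewise lost without OV replicate 1 or 2.

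The third comparison set the vector controls against each other, 5NC against 3NC, and it held the largest shift of the family on the scale used. Of 80 genes, 50 were lower, 5 were higher and 25 did not pass, where 25.6% of all genes tested were lower and 31.0% higher (limma). The share of members lower was thus 62.5%. The median difference was −0.19, against 0.02 over all genes tested, and the other 89 genes of at least 500 RPKM had −0.10. The libraries of 5NC lay above those of 3NC in 6 members and below in 58, against 37.5% and 31.9% of all genes tested. The number lower was 40 to 46 with any library left out, where 22.2% to 22.9% of all genes were lower, and 55 with the length trend taken off, where 29.9% were. Quantile normalization gave 14 higher and 25 lower with a median of −0.040, where 28% of all genes were higher and 29.3% lower, so that the share of members lower was then near the background. This comparison and that of KD share the 3NC libraries.

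Rps25 and Rps19, both 40S proteins, had the largest falls among the members. Rps25, which serves internal ribosome entry, was at 946, 969.6 and 964 RPKM in 3NC and at 731, 691 and 677 RPKM in 5NC. Its difference was −0.46 (SE 0.06, adjusted p = 1.80e-05). Rps19 was at 1053, 1048 and 1049.9 RPKM in 3NC and at 769, 779 and 781 RPKM in 5NC, a difference of −0.44 (SE 0.06, adjusted p = 4.22e-05). The groups were far apart in both genes compared with the spread within them. The 60S protein Rpl38 (−0.41) and the 40S proteins Rps12 (−0.37) and Rps14 (−0.37) followed.

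The 5 genes that were higher in 5NC were Rpl22l1 (0.27), Rpl7l1 (0.26), Rplp0 (0.19), Rpsa (0.19) and Rpl10a (0.16). Rplp0 was at 2018, 1896 and 1922 RPKM in 5NC, and Rpsa at 1335, 1267 and 1274 RPKM, above every 3NC library. The calls of Rpl22l1, Rpl7l1, Rplp0 and Rpsa passed an adjusted p of 0.05 under every other scaling, filter and design run and with any library left out, while that of Rpl10a was lost without 3NC replicate 1 or 2 or without 5NC replicate 1 or 3. The call of Rpl10a was also lost without a filter on low values and when centred on the median gene. Of the members with a promoter entry, 2 of the 5 higher in 5NC had the C and T run of at least 8 bases, as did 31 of 38 lower and 17 of 17 that did not pass. In KD it was found in 9 of 9 higher, 12 of 15 lower and 29 of 36 that did not pass.

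The values of some members are set side by side here for the comparisons that share 3NC. In KD and in 5NC, each against 3NC, Rplp0 differed by −0.43 and 0.19, Rpsa by −0.32 and 0.19, and Rpl7l1 by −0.36 and 0.26. Rpl22 differed by 0.24 and −0.27, Rpl38 by 0.23 and −0.41, and Rps27 by 0.20 and −0.25. Rpl22l1 was higher in both, at 0.83 and 0.27, and Rpl18 and Rps19 were lower in both, at −0.30 and −0.22 for Rpl18 and −0.19 and −0.44 for Rps19. The 5NC call of Rpl18 was lost without 3NC replicate 3 or 5NC replicate 1, and the KD call of Rps19 without 3NC replicate 1 or KD replicate 1 or 2. With 5NC in place of 3NC as the control of KD, 46 members were higher and 10 lower, with a median of 0.21, where 34% of all genes tested were higher and 31.4% lower with a median of 0.02.

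**Figure D5:**
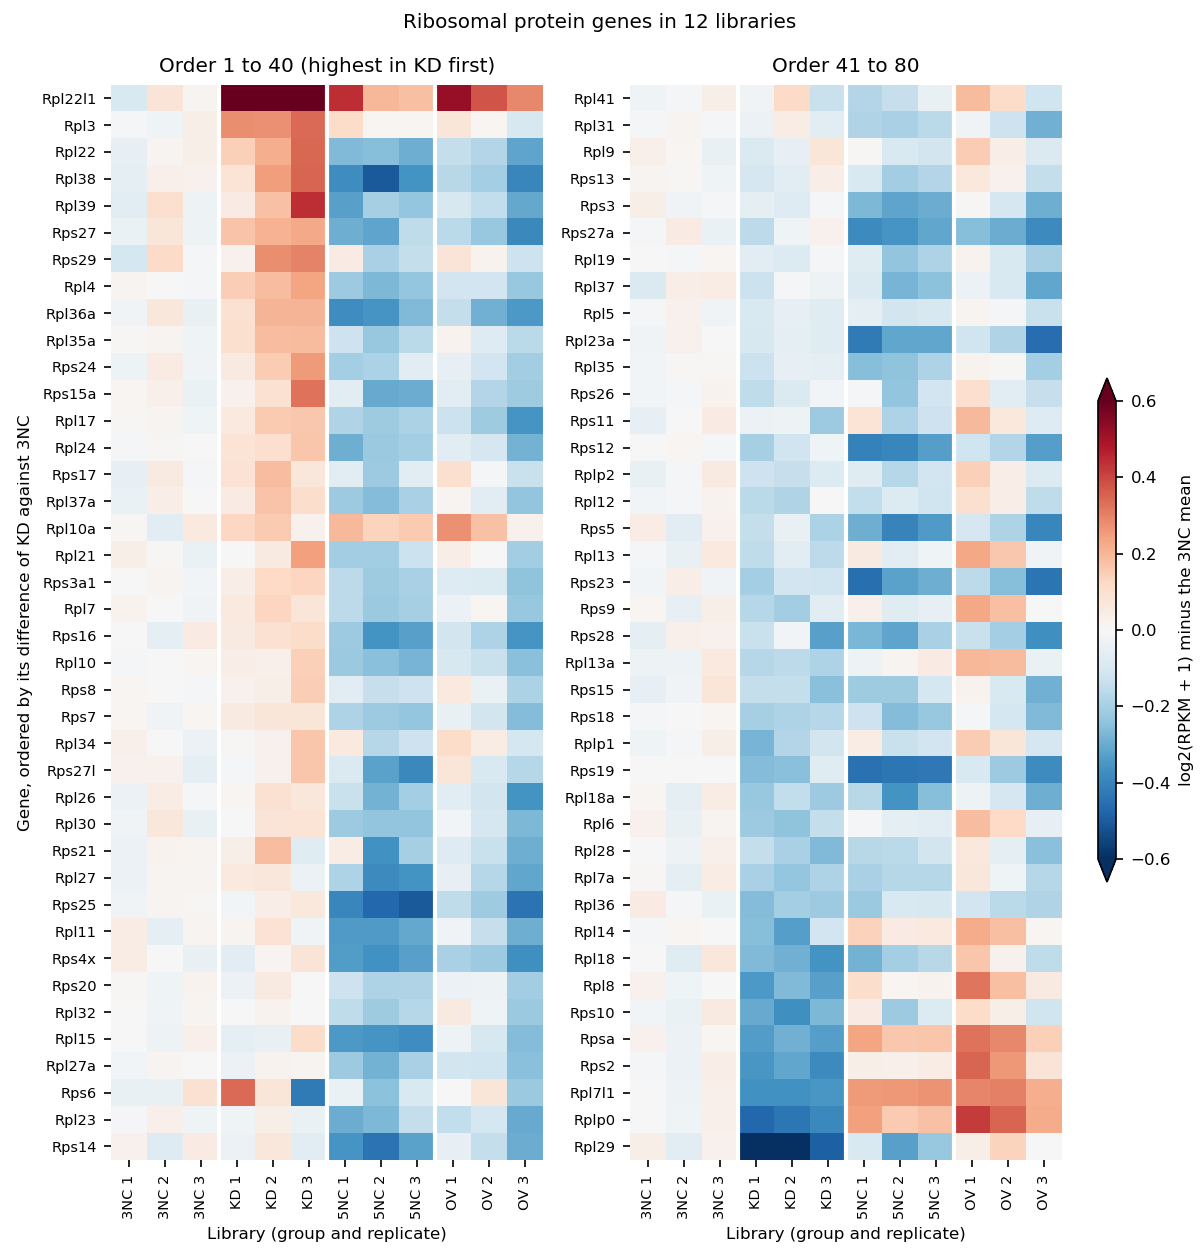
log2(RPKM + 1) minus the gene's 3NC mean in 12 libraries for 80 ribosomal protein genes, ordered by the difference of KD against 3NC (left, the upper 40; right, the lower 40); red is higher, blue lower, and the colour scale ends at 0.6 either way. Rpl22l1 is red in the KD, 5NC and OV libraries, Rplp0, Rpl7l1 and Rpsa are blue in KD and red in 5NC and OV, and OV replicate 3 is bluer than the OV libraries beside it.

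The counts by place in the ribosome and by list that follow are to be read against the shares over all genes tested, which were 31.9% higher and 23.5% lower in KD, 8.07% and 13.9% in OV, and 31.0% and 25.6% in 5NC. Lists made up of members are also to be read against the family as a whole. Its shares were 12.5% higher and 25% lower in KD, 11.25% and 0% in OV, and 6.25% and 62.5% in 5NC. Of 48 large subunit genes tested, 8 were higher and 13 lower in KD, 4 higher and 0 lower in OV, and 4 higher and 29 lower in 5NC. Of 32 small subunit genes, 2 were higher and 7 lower in KD, 5 higher and 0 lower in OV, and 1 higher and 21 lower in 5NC. The medians of both subunits were alike, at −0.01 and −0.03 in KD, 0.10 and 0.08 in OV, and −0.18 and −0.20 in 5NC.

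Of 14 genes of the 40S head, 0 were higher (1 at an unadjusted p under 0.05, limma) and 4 lower in KD, the former under the background and the latter near it. In OV 3 of them were higher and in 5NC 11 were lower, and the medians were −0.08, 0.09 and −0.28 in KD, OV and 5NC. Of 8 genes around the exit tunnel, through which the new chain leaves, Rpl4 and Rpl39 were higher in KD and all 8 were lower in 5NC (median −0.22). Rpl5 and Rpl11 carry the 5S RNA into the ribosome and, when free, bind Mdm2. Rpl11 was lower in 5NC (−0.33) and higher in OV (0.18), while Rpl5 passed in none of the comparisons (−0.07 in KD, 0.04 in OV and −0.09 in 5NC).

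Copies were set beside their parents. The ratio of Rpl22l1 to Rpl22, in RPKM, was 0.896 ± 0.0341 (SD, n = 3) for 3NC, 1.35 ± 0.0423 for KD, 1.31 ± 0.133 for 5NC and 1.37 ± 0.0555 for OV. Every library of KD, 5NC and OV was above every library of 3NC, the lowest at 1.23 and the highest 3NC library at 0.935. The log2 ratio of each of these groups against 3NC gave p = 0.1 in a two-sided exact permutation test, the smallest that 3 against 3 libraries allow (0.15 adjusted by Benjamini-Hochberg over 12 tests of copy ratios). In KD both the copy and the parent were higher, while in 5NC the copy was higher and the parent lower.

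Rpl7l1, a relative of Rpl7 that takes part in making the 60S subunit, was at 66.5, 65.0 and 67.8 RPKM in 3NC, 51.4, 51.4 and 51.9 RPKM in KD, 79.4, 79.7 and 80.2 RPKM in 5NC and 81.7, 82.1 and 77.4 RPKM in OV. KD lay below, and 5NC and OV above, every 3NC library. The differences were −0.36 (SE 0.04, adjusted p = 2.52e-06) in KD and 0.26 (SE 0.04, adjusted p = 5.37e-05) in 5NC, while OV against 5NC was 0.01. Its ratio to Rpl7 was 0.0553 ± 0.00183, 0.0403 ± 0.00111, 0.0759 ± 0.00203 and 0.0710 ± 0.00406 in 3NC, KD, 5NC and OV. Rps27l, a copy of Rps27 that p53 is known to induce, stood at 0.111, 0.101, 0.111 and 0.127 times its parent.

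Of the 7 parents of copies, 4 were higher in KD (Rpl3, Rpl22, Rpl39 and Rps27) and 6 were lower in 5NC, the exception being Rpl3 (0.04). The 4 genes on the X chromosome, Rpl10, Rpl36a, Rpl39 and Rps4x, were all lower in 5NC (−0.25, −0.33, −0.25 and −0.34), although the call of Rpl39 was lost without 3NC replicate 2 or 5NC replicate 1. In KD, Rpl36a and Rpl39 rose. Their autosomal copies Rpl10l and Rpl39l were under the filter, as given above.

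Other components of the cytosolic ribosome fall outside the name rule. Fau, the precursor of the 40S protein eS30, was lower in KD (−0.28, SE 0.06, adjusted p = 0.000754, limma) and in 5NC (−0.21, or 0.00 with quantile normalization). Rack1, the scaffold on the 40S head, passed in none of the comparisons. Rpl36al, the autosomal copy of Rpl36a, was lower in 5NC (−0.54) and higher in OV (0.35). Rps27rt, a copy of Rps27, was listed at 4.78 RPKM in 5NC replicate 1 and at 0 elsewhere.

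The factors that work on the ribosome were looked at next. Of 11 elongation and termination factors tested, 8 were lower in KD and 0 higher (0 at an unadjusted p under 0.05, limma), with a median of −0.23. They included Eif5a (−0.69), which helps the ribosome join prolines, and Abce1 (−0.46), which splits ribosomes after termination. Eef1e1 (−0.62) was counted among them by its name only. In OV 3 were higher, Eif5a (0.36) and Eef1d (0.26) among them, and 1 was lower, Eif5a2 (−0.33), a copy of Eif5a, whose call was lost without 5NC replicate 2 or 3 or OV replicate 1 or 2. In 5NC 1 of the 11 was higher and 4 were lower.

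Of 37 initiation factors, 6 were higher and 15 lower in KD (16.2% and 40.5%). Eif4a1, the main helicase that opens the 5′ UTR, fell by 0.81 on the log2 scale (SE 0.04, adjusted p = 4.14e-10), and its copy Eif4a2 rose by 0.51. Eif4g2 fell by 1.03 and Eif6, which keeps the free 60S subunit from joining, fell by 0.73. In OV 7 were higher, Eif4a1 (0.20, or 0.076 and not passing with quantile normalization) among them, and 0 lower (2 at an unadjusted p under 0.05, limma), and in 5NC 8 were higher and 16 lower (21.6% and 43.2%).

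Among 16 genes of the mTORC1 and LARP1 pathway, 1 was higher and 5 lower in KD, the latter near the background. The rise was that of Pdcd4 (0.86), an inhibitor of Eif4a1. Larp1 itself, which binds the tract, had a difference of −0.34 (SE 0.05, adjusted p = 1.53e-05), with Larp4 at −0.57 and Akt1s1 at −0.34. In 5NC 5 were higher, a share at the background, and 3 lower, led by Akt1s1 (0.96) and Eif4ebp1 (0.68), the repressor of cap binding. In OV 1 was higher and 1 lower. Of 11 factors that meet the new chain, 4 were higher and 1 lower in KD, 4 higher and 0 lower (0 at an unadjusted p under 0.05, limma) in OV, and 1 higher and 6 lower in 5NC, with Srp72 at 0.27 in KD and Srp68, a part of the same signal recognition particle, at −0.69 in 5NC.

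The mitochondrial ribosome is built from other genes. Of its 78 genes, 21 were higher and 15 lower in 5NC, with a median of 0.03 beside −0.19 for the cytosolic family. In KD 13 were higher and 28 lower (median −0.07), with Mrps18b (−0.69) and Mrpl12 (−0.59) lowest. In OV 10 were higher and 0 lower (0 at an unadjusted p under 0.05, limma; median 0.10), with Mrps28 (0.31) highest, a call lost without 5NC replicate 2 or OV replicate 2. The difference between both families was described by these counts and not tested.

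Of the members, 0 passed in any of the 3 limma comparisons under a stricter rule taken from the study's methods, a false discovery rate of at most 0.001 and a change of at least 2-fold. Rpl29 lay at its edge in KD, with −1.01 at a pseudocount of 0.1, −1.02 with the length trend taken off and −1.10 without KD replicate 3, each of which met it. Over all genes tested the rule was met in KD by 0.498% in the upward and 1.08% in the downward direction, in 5NC by 1.56% and 1.05%, and in OV by 0%. The median over members of the CV within a group was 2.5% for 3NC, 4.06% for KD and 3.75% for 5NC, and 8.24% for OV.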

How the data were processed

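RNA of 12 C18-4 libraries was measured by RNA-seq, with groups and replicates as labelled. The authors mapped reads with SOAPaligner 2.20 and deposited RPKM values, 1 table of 17576 genes, per the study's methods. The methods describe mRNA enriched with oligo(dT), while the labels name total RNA. The genome build and gene set are not given in the sources used here, and the supplementary heading for C18-4 names another lncRNA than the labels, which were followed. RPKM keeps no read numbers, so no counting interval is given, and how reads shared with gene copies were counted is not stated.

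The deposited values were used as log2(RPKM + 1). Genes of at least 1 RPKM in at least 3 libraries, 11435 in all, entered limma 3.58.1 (R 4.3.3) with a term for the group over all 12 libraries, eBayes with trend, and Benjamini-Hochberg adjustment. A gene was called at an adjusted p of at most 0.05. A fold change on this scale understates that of low genes. In a simulation of KD against 3NC on 11435 genes, 84 of 100 genes changed by 0.5 and 99 of 100 changed by 1 (log2) were called in the right direction, with 9 false calls. The noise was drawn independently for each gene and library. It therefore does not measure false calls among genes that move together. Tests are two-sided.

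The members and gene lists were chosen with earlier results of these data known, so no p is given for the family or a list. Named in each comparison were the 5 largest rises and the 5 largest falls of called members without overlap, besides the highest and lowest members, those of short lists (copies, parents, stalk, 5S, X chromosome), Rpsa and Rps6, and at most 3 called genes of each other list. Rps15a, Rps20 and members named only to complete a count of calls were added after their values were seen. Markers of Sertoli cells (5 of 11 in the table at 1 RPKM or more) summed to 65.1 to 79.3 RPKM and those of Leydig cells (1 of 5) to 0.88 to 2.43 RPKM. Of 14 snoRNA host genes, 0 were in the table used here. A gene of the lists is not reported here.

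Alternatives were another pseudocount (0.1), no filter, quantile normalization, other scalings, a length trend taken off, a fit to 6 libraries, a replicate block, stricter thresholds and each library left out. Centring on the median ribosomal protein gene and 5NC as the control of KD were chosen after seeing the data. Transcript lengths (98.6% of genes tested) are from GENCODE vM21, and start sequences from RefSeq. Figures were drawn with matplotlib 3.10.9.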

Additional observations from a re-analysis of the deposited data

How the results depend on the processing

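In KD against 3NC, the ribosomal protein genes higher were 10 and those lower 20. The number higher was 6 without a filter on low values, 22 with quantile normalization, 24 when centred on the median ribosomal protein gene, 17 in a fit to the 6 libraries compared and 4 at an adjusted p of at most 0.01, where 12 were lower. In this order, up to the fit to the 6 libraries, 22.5%, 29.5%, 32% and 32.6% of all genes were higher. The share over all genes at 0.01 is not given here. With the length trend taken off there were 4 higher and 45 lower and the median was −0.12, beside 28.9% and 29.1% of all genes. With 5NC as the control there were 46 and 10, with a median of 0.21, beside 34% and 31.4% of all genes. Leaving out 1 library gave 5 to 13 higher, 14 to 19 lower and medians of −0.03 to −0.00053, beside 28.4% to 31.3% of all genes higher and 20.5% to 22.4% lower. In OV against 5NC (9 higher, 0 lower), the number higher was 1 without a filter, 1 with quantile normalization (6 lower, median −0.0075), 5 with the same sum over all genes (2 lower), 5 with the same sum over all other genes, 17 when centred on the median gene, 0 when centred on the median ribosomal protein gene (3 lower, median −0.020), 2 in a fit to 6 libraries and 0 at an adjusted p of 0.01. In this order, up to the fit to 6 libraries, 4.06%, 8.21%, 4.56%, 5.06%, 11.9%, 1.96% and 5.48% of all genes were higher. The share lower was 8.31% with quantile normalization, 21.7% with the same sum over all genes and 28.9% when centred on the median ribosomal protein gene. Leaving out 1 library gave 0 to 53 higher, 0 lower and medians of 0.05 to 0.16, beside 3.42% to 14.6% of all genes higher and 5.1% to 21.9% lower. In 5NC against 3NC (5 higher, 50 lower), quantile normalization gave 14 higher and 25 lower with a median of −0.040, and centring on the median ribosomal protein gene gave 18 and 15 with 0.0090. Of all genes, 28% were higher and 29.3% lower in the former fit, and 51.9% and 9.56% in the latter. Leaving out 1 library gave 4 to 5 higher, 40 to 46 lower and medians of −0.20 to −0.17, beside 27.8% to 28.2% of all genes higher and 22.2% to 22.9% lower. At an adjusted p of 0.001 and 2-fold, 0 were higher and 0 lower in each comparison. The causes were not tested, beyond the smaller number of samples or the constructed centring.

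The mean shares of 20.7%, 20.1%, 18.9% and 19.4% were 8.57%, 8.24%, 7.67% and 8.15% when weighted by transcript length, and 19.9%, 19.4%, 18.3% and 18.7% without Rpl23a. Centring on the median ribosomal protein gene moved the median of all genes tested from −0.03 to −0.14 in OV and from 0.02 to 0.22 in 5NC.

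Of 2891 values of single genes under the settings run, 2546 were counted as the same, 196 lost the call, 121 gained one and 28 turned. Those counted as the same include values that changed sign without a call. An example is Rps6 in OV, at 0.07 in the main fit and at −0.04 to 0.16 under the other settings. With the length trend taken off, Rps27 (−0.015), Rpl15 (−0.10), Rps25 (−0.12), Rpl32 (−0.12) and Rpl36a (−0.0074) turned in KD. With quantile normalization, Rpl23a (−0.17) and Rpl32 (−0.13) turned in OV, and Rpl32 (0.084), Rplp1 (0.10) and Fau (0.0028) in 5NC. Centred on the median ribosomal protein gene, Rpl32 (0.016), Rpl7 (0.0024), Rplp1 (0.13), Rpl5 (0.11), Rack1 (0.10), Eif5a (0.029) and Mrpl12 (0.18) turned in 5NC. With 5NC as the control of KD, Rps14 (0.36), Rps19 (0.24), Rps12 (0.26), Rpl23a (0.28), Rpl36al (0.40), Rpl35 (0.15), Rps18 (0.019), Eef1d (0.12), Srp68 (0.62), Eif4ebp1 (−0.58) and Mrpl14 (0.39) turned.

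Same-numbered libraries showed no clear common deviation (correlations of −0.18 to 0.18 over genes), and the main fit had no pairing. With 3 libraries a group these values cannot exclude a pairing, and the labels do not state one. A replicate block gave 9 higher and 19 lower in KD, 6 and 0 in OV, and 5 and 49 in 5NC. Of all genes, 31.9% were higher and 23.5% lower in KD, 7.77% and 14% in OV, and 31% and 25.6% in 5NC in these fits. The table of RPKM does not give depth, which limits the precision of the low members Rpl29 and Rps6 to an unknown extent, and 3 libraries a group limit each comparison.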
